A study of Homo sapiens with 30 samples.

Results

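The sites described here are 1229 adenosines that full-length ADAR2 edited and the MCP-ADAR2 fusions left nearly untouched. They were chosen from 382978 listed A-to-G sites by 3 conditions on the share of reads carrying the edited base. The share had to be 15% or more in each of the 4 full-length ADAR2 libraries, its mean over the 8 MCP-ADAR2 libraries had to be 3% or less, and its mean over the untransfected runs had to stay under 5%. Of the 3716 sites that met the first and the third condition, 1229 (33.1%) met the second and are called missed sites here. Another 749 (20.2%) had an MCP-ADAR2 mean of 15% or more and are called shared sites, and 1738 lay in between. Shares under full-length ADAR2, under MCP-ADAR2 and in untransfected cells therefore chose the sites, and they are given below as a description only.

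All cells were HEK 293T, a human embryonic kidney line, and poly(A) RNA was taken 60 h after transfection. The 4 full-length libraries expressed ADAR2 or ADAR2 (E488Q), each without and with the GluR2 adRNA, a guide RNA. The 8 MCP-ADAR2 and the 8 MCP-ADAR1 libraries expressed the deaminase domain (DD) alone, fused to the MS2 coat protein MCP and to a nuclear export signal (NES) or a nuclear localisation signal (NLS), as wild type or as E488Q (ADAR2) or E1008Q (ADAR1), each without and with the MS2 adRNA. The remaining deaminase libraries were Cas13b-ADAR2 DD (E488Q) without and with its gRNA, and the controls were GFP, MS2 adRNA, GluR2 adRNA and Cas13b gRNA alone and 3 runs of 1 untransfected library. Each transfected condition is 1 library, no read depth or expression level was given, and the amount of each protein and the cell line's markers could not be checked.

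ADAR enzymes deaminate adenosine to inosine in double-stranded RNA, and inosine is read as guanosine. Full-length ADAR2 carries double-stranded RNA-binding domains in front of its deaminase domain, and the fusions measured here replace them with a protein that binds a hairpin or a guide. The natural substrates of ADAR2 include coding adenosines held in short imperfect duplexes and adenosines in inverted Alu repeats, mostly in introns and 3′ UTRs. Substitution of the catalytic-domain glutamate (E488Q in ADAR2, E1008Q in ADAR1) is known to raise the activity of the domain.

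Sequences from 2 kinds of missed site are shown first, taken from GENCODE 29 transcripts. The results below are split by whether an inverted copy was found for a site. The first kind lies in a stretch of transcript with an inverted copy nearby, so that it can fold into a long duplex. The arms are written 5′ to 3′ with the edited adenosine and the base that faces it in capitals. In the 3′ UTR of SERBP1, an RNA-binding protein, the edited arm (chr1:67409001-67409025, minus strand, GRCh38) and its facing arm (chr1:67409166-67409190) form 20 complementary pairs. In the 3′ UTR of PSMB2, a proteasome subunit, the arms (chr1:35602558-35602582 and chr1:35602265-35602289, minus strand) form 22, and in the 3′ UTR of EIF2AK2, the kinase PKR that is activated by double-stranded RNA, the arms (chr2:37100921-37100945 and chr2:37100442-37100468, minus strand) form 20. A uridine faces the adenosine in all 3. MAGT1, a magnesium transporter, supplies a shared site for contrast (chrX:77828214-77828238 and chrX:77828325-77828349, minus strand), where a cytidine faces the adenosine.
SERBP1 edited arm: ugcagugagccaAgaucauagcacu
SERBP1 facing arm: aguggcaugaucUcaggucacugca
PSMB2 edited arm: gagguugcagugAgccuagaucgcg
PSMB2 facing arm: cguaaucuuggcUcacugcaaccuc
EIF2AK2 edited arm: cagaugaaccccAagagccacaugu
EIF2AK2 facing arm: cuguguggcucuuaUgggguuaauuug
MAGT1 shared site, edited arm: ggaguccgaggcAgguggauugcuu
MAGT1 shared site, facing arm: aagugauccgccCgccucagucucc

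For the second kind no such copy was found in the transcript by the search described below. Windows of 21 nucleotides are shown for coding sites at 0 in all 8 MCP-ADAR1 libraries, in CYFIP2 (chr5:157309790-157309810, plus strand) and TMEM63B (chr6:44152602-44152622, plus strand). Windows are also shown for 3′ UTR sites with high shares under MCP-ADAR1, in RUNDC1 (chr17:42991912-42991932, plus strand), OSTM1 (chr6:108044205-108044225, minus strand), ARMC5 (chr16:31466104-31466124, plus strand) and TICRR (chr15:89627581-89627601, plus strand). The edited adenosine is in capitals.
CYFIP2 K320E: cagauacauuAagaccagugc
TMEM63B Q619R: uacgaguuccAguuuggcgca
RUNDC1: cuuguuaagaAgguucugcca
OSTM1: uuuuaaaaguAguaagccaca
ARMC5: cuucuggagcAggguggucuc
TICRR: aaucaucucuAgugacugagc

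Over the 1229 missed sites the median share was 23.3% under wild-type full-length ADAR2 without guide and 31.1% with the GluR2 adRNA. Under E488Q it was 30.3% without and 50.8% with the guide. In the 8 MCP-ADAR2 libraries the medians ran from 0 to 1.41%, and 98 missed sites were at 0 in all 8. The threshold bears on the mean, so single MCP-ADAR2 libraries could be higher: 838 sites exceeded 3% in at least 1 of them and 4 exceeded 15%. Among the sites nearest to the thresholds, CAND2 and RASA1 had a lowest full-length share of 15% and PGAM5, just outside, had 14.95%. RBM33 was inside with an MCP-ADAR2 mean of 2.999% and SON, at another of its sites, outside with 3.003%.

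**Figure D1:**
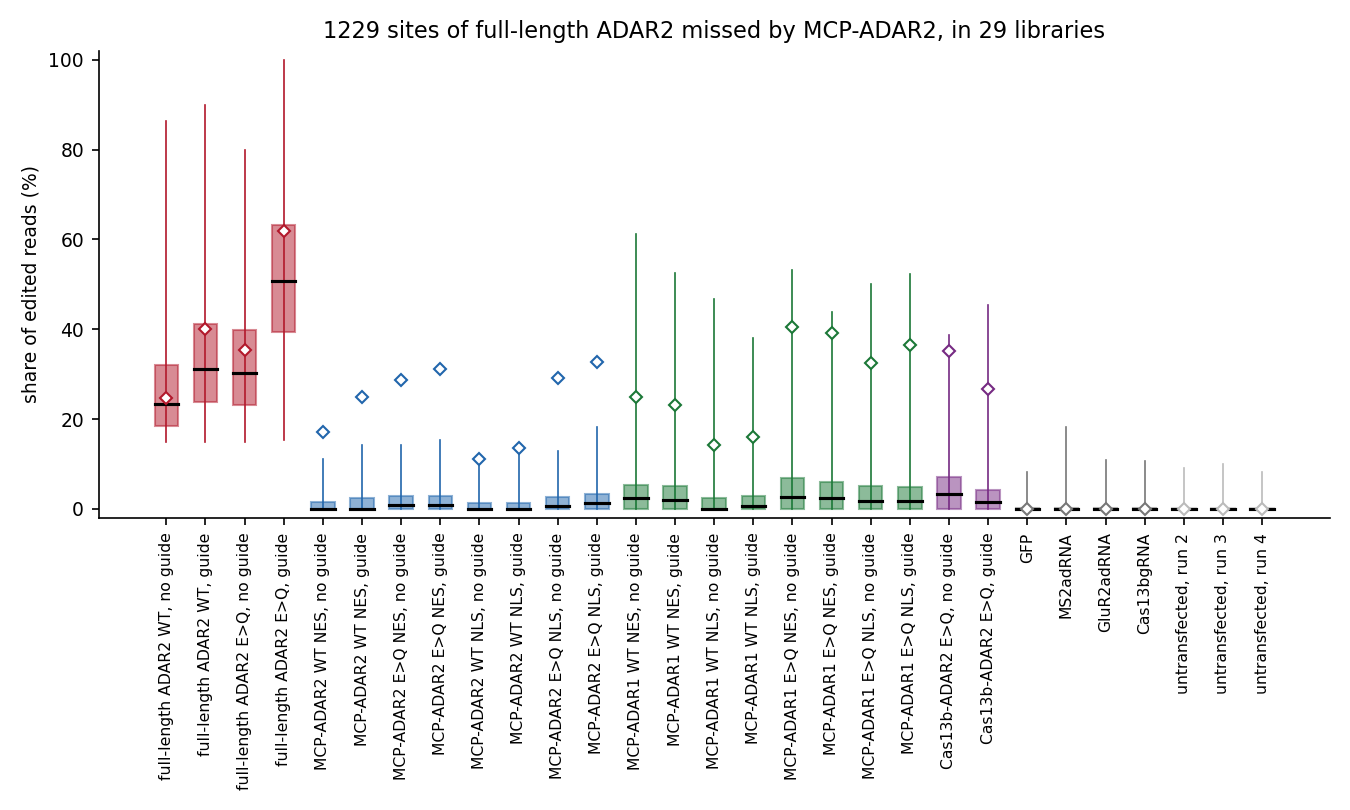
Share of edited reads (%, vertical axis) over the 1229 missed sites in each of 29 libraries (horizontal axis); boxes span the quartiles, black bars are medians, lines run from the lowest to the highest site, and open diamonds are the medians of the 749 shared sites. The full-length boxes (red) lie above all others because the rule chose them so, while the medians under MCP-ADAR1 (green) lie between 0 and 2.7% and those of the controls at 0.

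The site with the highest mean share lay in the 3′ UTR of SERBP1 (chr1:67409013), whose arms are printed above. Its shares were 86.3% (wild type, no guide), 83.3% (wild type, guide), 66.1% (E488Q, no guide) and 86% (E488Q, guide). In the 8 MCP-ADAR2 libraries it ran from 0 to 4.17% with a median of 2.1%, and in the 8 MCP-ADAR1 libraries from 0 to 5.45% with a median of 2.52%. The untransfected runs gave 7.35%, 2.25% and 4%, so MCP-fusion values overlapped those of untransfected cells. GATC, a subunit of the mitochondrial amidotransferase that makes glutaminyl-tRNA, had a mean of 78.9% in its 3′ UTR (chr12:120461182). Further high sites lay in C16orf72, IL17RB, TBL1XR1, OIP5-AS1, CYFIP2 and ZNF621 and at another position of SERBP1 (chr1:67409166), with means from 66.8% to 73.4%. The 2 SERBP1 sites sit on opposite arms of 1 duplex: the arm that faces the latter (chr1:67409013-67409037) begins at the former.

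Several genes known for coding ADAR sites are among those with missed sites. From a list of 38 such genes, 23 held a listed site and 6 held 18 missed sites, with a median full-length share of 41.1%. The 18 were 30.5% of the list's 59 sites that met the first and the third condition, near the 33.1% of all 3716. CYFIP2, a subunit of the WAVE actin-regulatory complex, had K320E (chr5:157309800) at 62.7%, 79.4%, 55.6% and 72.7% in the 4 full-length libraries, in the order given for SERBP1. Its highest share in any MCP-ADAR2 library was 4.55%. It was at 0 in all 8 MCP-ADAR1 and both Cas13b libraries, and at 2.38% in the GFP control. TMEM63B, a mechanosensitive cation channel, had Q619R (chr6:44152612) at 57.1%, 30.4%, 40.5% and 77.8%, with all 8 MCP-ADAR1 libraries at 0. The highest MCP-ADAR2 share of this site was 10.3%, and under Cas13b it had 0 without and 2.33% with the gRNA (adjusted p = 0.0427, limma). The list also held AZIN1, an inhibitor of antizyme, at Q437R (chr8:102828604, mean 42.6%), SRP9, a subunit of the signal recognition particle, with 5 sites, and SON, a nuclear speckle protein, with 8. Many of the 18 sites do not recode. The 5 coding sites of SON were synonymous and its other 3 lay in the 3′ UTR. SRP9 had R56G and I64V, the synonymous S80S and sites in the 3′ UTR.

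**Figure D2:**
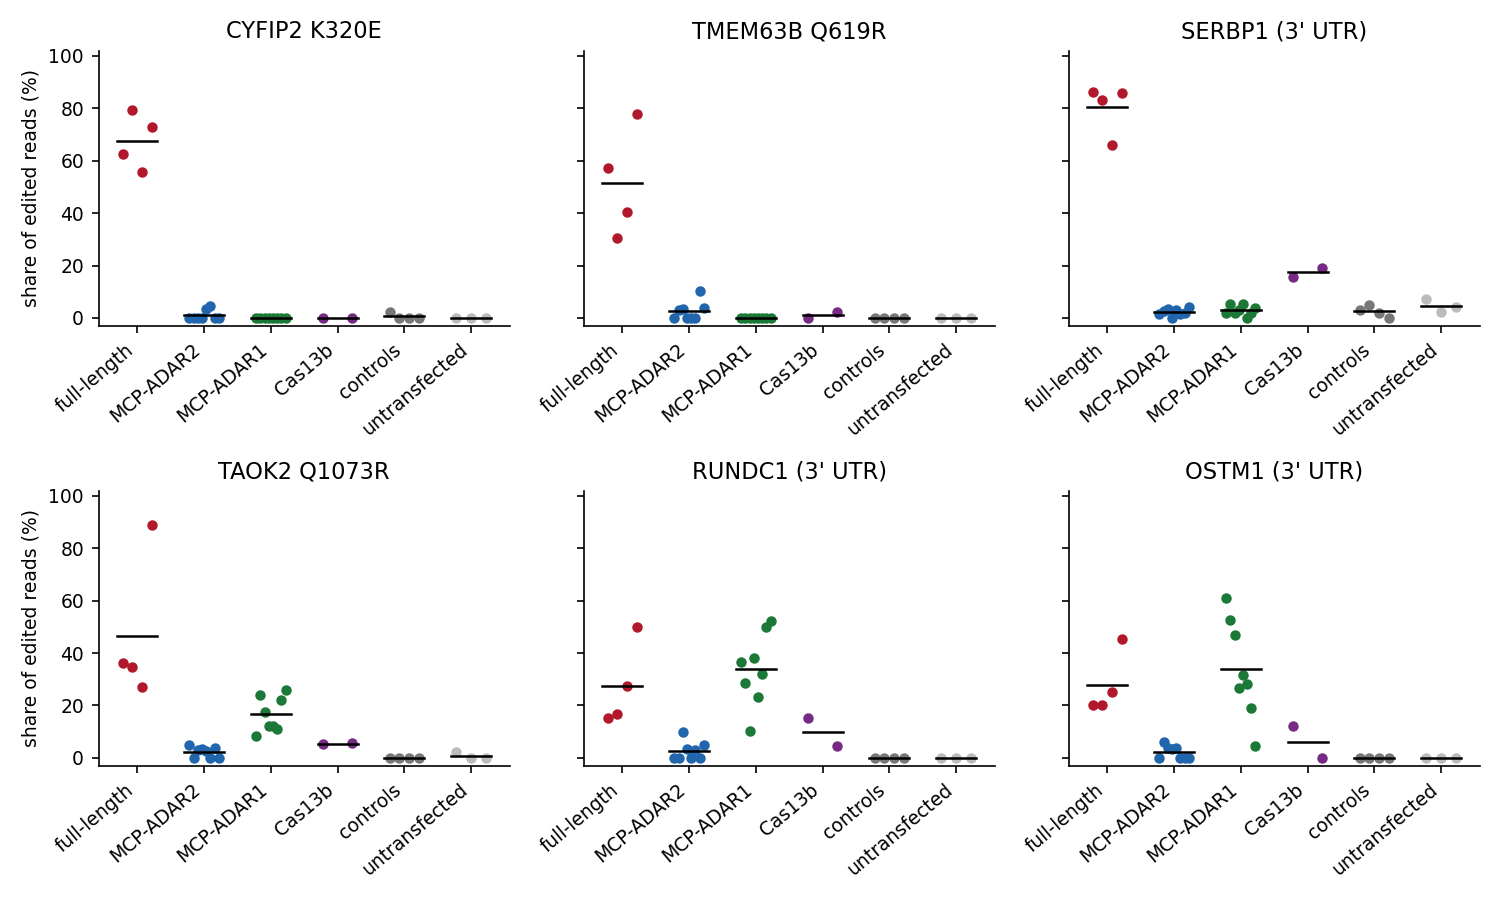
Share of edited reads (%, vertical axis) at 6 missed sites; each point is 1 library or run, coloured by construct class (horizontal axis), and bars are class means. CYFIP2, TMEM63B and SERBP1 were highest under full-length ADAR2, with SERBP1 at 15.5% and 19.2% under Cas13b, whereas TAOK2 reached 25.9%, RUNDC1 52.4% and OSTM1 61.1% under MCP-ADAR1.

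Coding sequence held 215 missed sites. The change altered the amino acid at 149 of them (69.3%), was synonymous at 65 and removed a stop codon at 1. Among shared coding sites 180 of 246 (73.2%) altered the amino acid, and among all listed coding sites 73.5%. Apart from CYFIP2 and TMEM63B, amino-acid changes with high mean full-length shares were WDR6 Y45C (63%), RSRP1 R124G (48.8%), TAOK2 Q1073R (46.6%), LEMD2 N245S (46.6%), SETD1B E413G (46.3%), FEM1B K10R (44.7%) and RSBN1 S93G (44.5%). TAOK2, a stress-activated kinase, stood apart from these 7 under MCP-ADAR1, at 16.6% ± 6.73 (SD, n = 8), where the other 6 had means from 0.493% to 3.44%.

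Most missed sites lay outside coding sequence. The 3′ UTR held 693 (56.4%), against 53.4% of shared sites and 28.9% of all listed sites. Coding sequence held 17.5% of missed, 32.8% of shared and 64.6% of listed sites, and the 5′ UTR held 12.4%, 6.01% and 4.26%. Exons of noncoding transcripts held 7.65% of missed sites, introns 3.5% and sequence outside annotated genes 2.52%. The missed sites fell in 618 genes, and 391 of these held a single one. The 8 genes with the most were XIST (17), XRCC2 (15), PAICS (12), TOB2 (12), FGD5-AS1 (11) and C16orf72, MAGT1 and DFFA (10 each). For 87 sites exons of more than 1 gene overlap, and the 51 nucleotides around 59 of 1144 sites tested occur in another gene as well, so the gene given for these is uncertain. Of the sites named with values here this holds for TBL1XR1, C16orf72, SLC25A32 and PURB.

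Inverted copies were sought by aligning the 50 nucleotides on either side of a site with the reverse complement of the same transcript up to 2000 nucleotides away (match 1, mismatch -1, gap -2, minimum score 25). Introns, pairing inside this window and copies farther away were not searched, so a site without a copy is one where none was found. Of the 1153 missed sites with a transcript, 403 (35%) in 126 genes had such a copy. The same search found one for 89 of 723 shared sites (12.3%) and 0.944% of all listed sites. The arms of missed sites were 78.7% complementary over a median of 86 nucleotides, with a median of 576 nucleotides between them. Within 3′ UTRs the shares were 50.9% of missed, 18% of shared and 2.65% of listed sites. In coding sequence they were 3.26%, 3.66% and 0.158%. Sites in 1 duplex share their sequence and are not independent, and annotation of repeats was not used here.

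Where a copy was found, the base facing the edited adenosine differed in frequency between missed and shared sites. Uridine, which pairs with adenosine, faced 312 of 403 missed sites (77.4%) and 23 of 89 shared sites (25.8%). Cytidine, which forms an A-C mismatch, faced 9.93% of missed and 69.7% of shared sites. All listed sites with a copy had uridine at 62.6% and cytidine at 24.8%. Averaged over genes, so that each duplex-rich transcript counts once, uridine faced 74.9% of missed sites in 126 genes and 28.5% of shared sites in 59 genes. The facing base was read from an alignment, not from a measured structure.

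**Figure D3:**
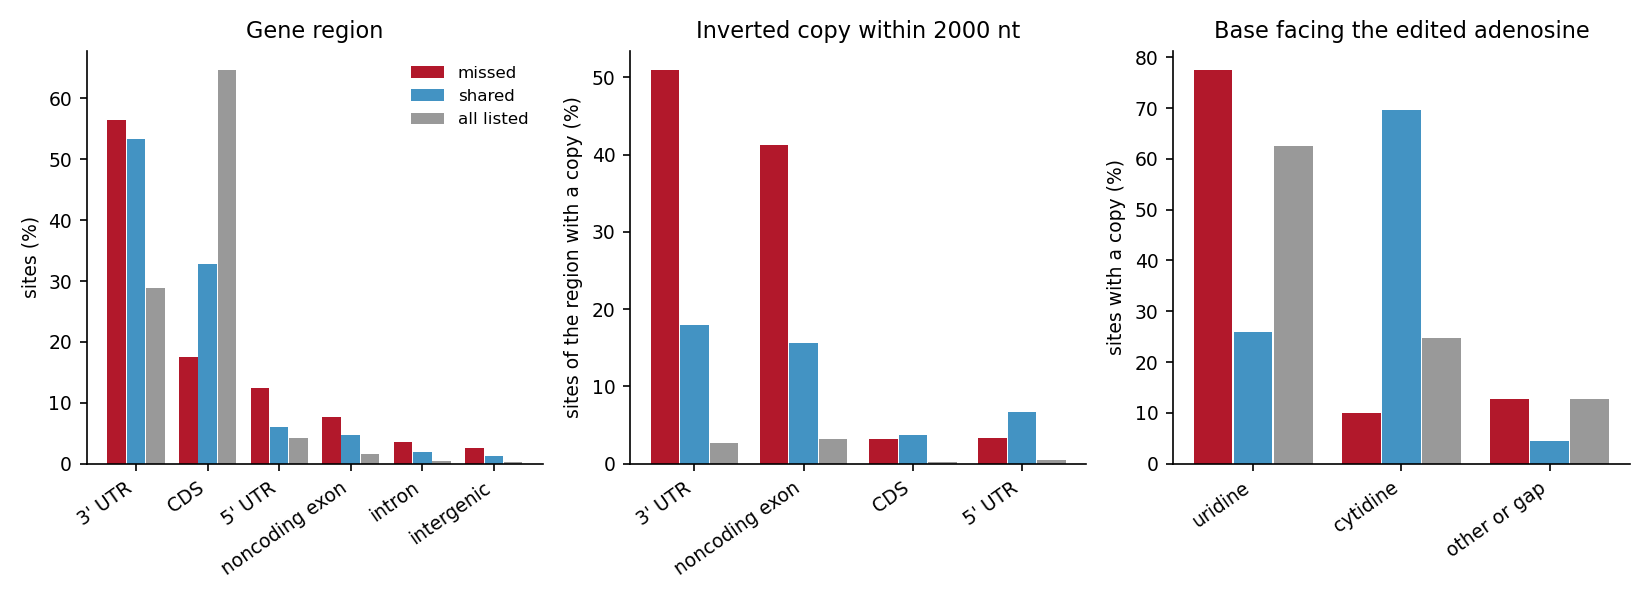
Shares of sites (%, vertical axes) by gene region, with an inverted copy by region, and by the base that faces the edited adenosine in that copy (horizontal axes), for the missed sites (red), the shared sites (blue) and all listed sites (grey). In the 3′ UTR 50.9% of missed sites had a copy against 18% of shared sites, and uridine faced 77.4% against 25.8%.

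The bases next to the edited adenosine also differed in frequency. A cytidine preceded 528 of 1153 missed sites (45.8%), against 36.1% of shared and 30.2% of all listed sites. Uridine preceded 16.1% of missed and 37.8% of shared sites. Guanosine, the base that ADAR enzymes are known to disfavour at this position, preceded 11.3% of missed sites, 2.35% of shared sites and 12.2% of listed sites. Guanosine followed 61.9% of missed, 74.1% of shared and 58.7% of listed sites. The triplet UAG made up 7.46% of missed and 23.7% of shared sites, while CAG made up 30.5% and 29.2%. Among all adenosines of the transcripts assigned to missed sites, pooled, cytidine preceded 27.8%, uridine 17.5% and guanosine 25.7%, and guanosine followed 29.6%. In folds predicted by ViennaRNA for windows of 201 nucleotides, the adenosine was paired at 47.5% of 1091 missed, 36.3% of 710 shared and 44.5% of listed sites.

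The duplex-bearing missed sites included many in messages known for edited Alu elements. From a list of 30 such genes, 12 held 56 missed sites, and 52 of these had an inverted copy. The 56 were 40.9% of the list's 137 sites that met the first and the third condition, against 33.1% of all 3716. Mean full-length shares of the 56 ran from 22.4% to 64.5%. The genes included MDM2 and MDM4, which restrain p53, XIAP, a caspase inhibitor, EIF2AK2, PPIA (cyclophilin A), GINS1 (a DNA replication factor), NUP43 (a nuclear pore subunit), MRPS16 (a mitochondrial ribosomal protein), PSMB2, BPNT1 and FAHD1. The FAHD1 sites, Y52C and E73G, were coding and had no copy found. GINS1 held 9 sites, from 27.8% at chr20:25447708 to 50.7% at chr20:25447908. The highest was EIF2AK2 at chr2:37100957, with 65.6%, 62.5%, 60% and 70% in the full-length libraries. Its MCP-ADAR1 shares ran from 0 to 16.1% with a median of 4.01%, a spread that reached the controls, which were at 0 to 2.56%.

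Missed sites lay in the same genes as more heavily edited sites. In the 3′ UTR of PSMB2, 6 missed sites had full-length means of 29.9% to 49.9% and MCP-ADAR2 means of 1.44% to 2.79%. The same stretch held 14 sites with 5% or more in untransfected cells, and 1 of them, with 74.6% there, had 95% under full-length ADAR2 and 89.2% under MCP-ADAR2. In PAICS, an enzyme of purine synthesis, 12 missed sites had MCP-ADAR2 means of 0.203% to 2.17%, while a site among them had 52.9% under MCP-ADAR2 and 49.2% in untransfected cells. XRCC2, a DNA repair protein, had 15 missed sites, none above 2.98% under MCP-ADAR2, beside sites of up to 42.2%. The XRCC2 site with 42.2% had 33% in untransfected cells. Over the genes holding a missed site with a copy, 365 listed sites reached an MCP-ADAR2 mean of 15%, and 203 of these (55.6%) had 5% or more in untransfected cells, against 5.1% of all 7357 listed sites that reached it. Altogether 491 of the 618 genes (79.4%) held a listed site with an MCP-ADAR2 mean of 10% or more. Within 50 nucleotides, 373 missed sites (30.3%) had such a site, and 261 of 749 shared sites (34.8%) had another one. The same was not counted over all listed sites or their genes.

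**Figure D4:**
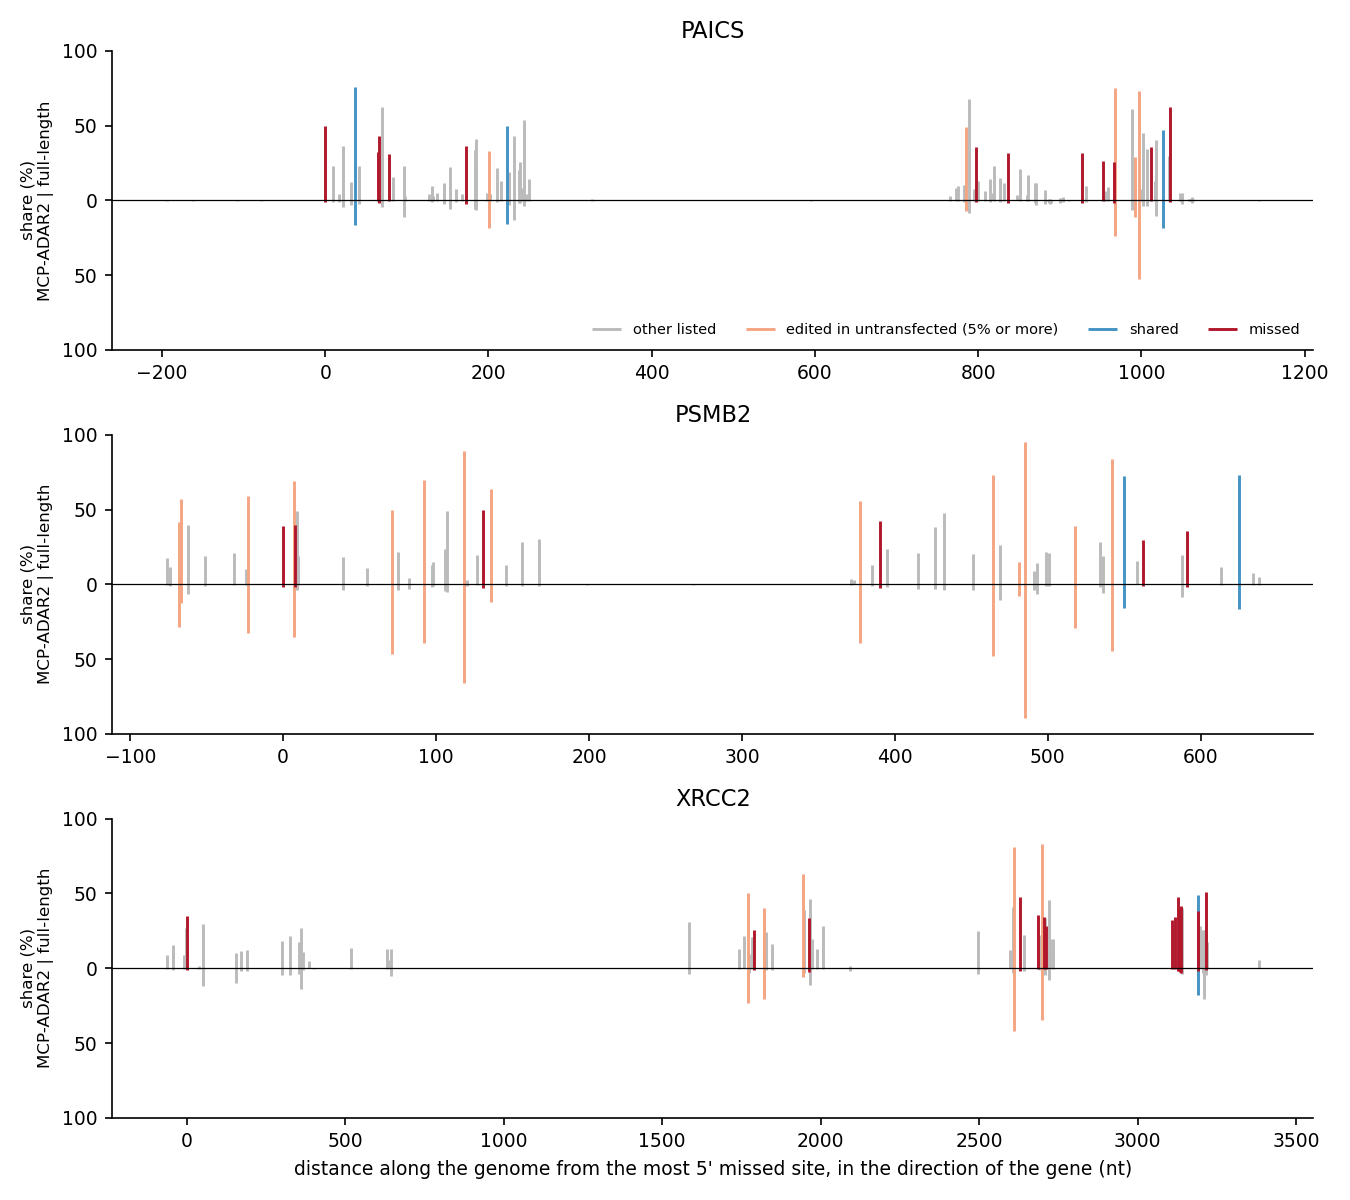
Listed sites along 3 genes, by distance in nucleotides along the genome from the most 5′ missed site (horizontal axis); bars above the line give the mean share under full-length ADAR2 (4 libraries, %), bars below it the mean under MCP-ADAR2 (8 libraries, %). Missed sites (red) have bars above the line and almost none below it, and the longest bars below belong mostly to sites with 5% or more in untransfected cells (orange), such as the PSMB2 site with 89.2%.

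MCP-ADAR1 and the controls took no part in the choice of sites, and they were compared with limma on the arcsine square root of the share, fitted over all 382978 sites. The fit held MCP-ADAR1, Cas13b and control libraries with variant, localisation and guide as terms and used a Benjamini-Hochberg adjusted p under 0.05. MCP-ADAR1 was higher than the 4 transfected controls at 595 of 1229 missed sites (48.4%), against 87.5% of all listed sites. It was lower at 5 (0.407%), against 0.041% of listed sites. Among shared sites 721 of 749 (96.3%) were higher. The deposited list holds sites that some library had called, 382976 of them with an adjusted p under 0.01 in the authors' deposited table, and MCP-ADAR1 libraries supplied many of these calls. The median MCP-ADAR1 mean was 2.23% over missed sites, 28.8% over shared sites and 4.03% over all listed sites.

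Most called differences were small. Their median was 4.27 percentage points, 252 of 595 were 5 points or more and 72 were 10 or more. Of missed sites with a copy, 80 of 403 (19.9%) were called higher, and of those without, 482 of 750 (64.3%). Listed sites also had a lower share called where there was a copy, at 43.6% with one and 88.1% without, and shared sites had 80.9% and 99.1%. Missed sites with a copy had a median of 1.4% under MCP-ADAR1 and 0.556% in controls, and those without had 2.94% and 0. By region the share of missed sites called was 71.2% in coding sequence, 64.7% in 5′ UTRs and 39% in 3′ UTRs, against 89%, 80% and 86.2% of all listed sites there. Whether the differences by copy or region are larger among missed sites than among listed sites was not tested. Depth and transcript level at these sites are unknown, and their part in the number of calls was not tested.

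**Figure D5:**
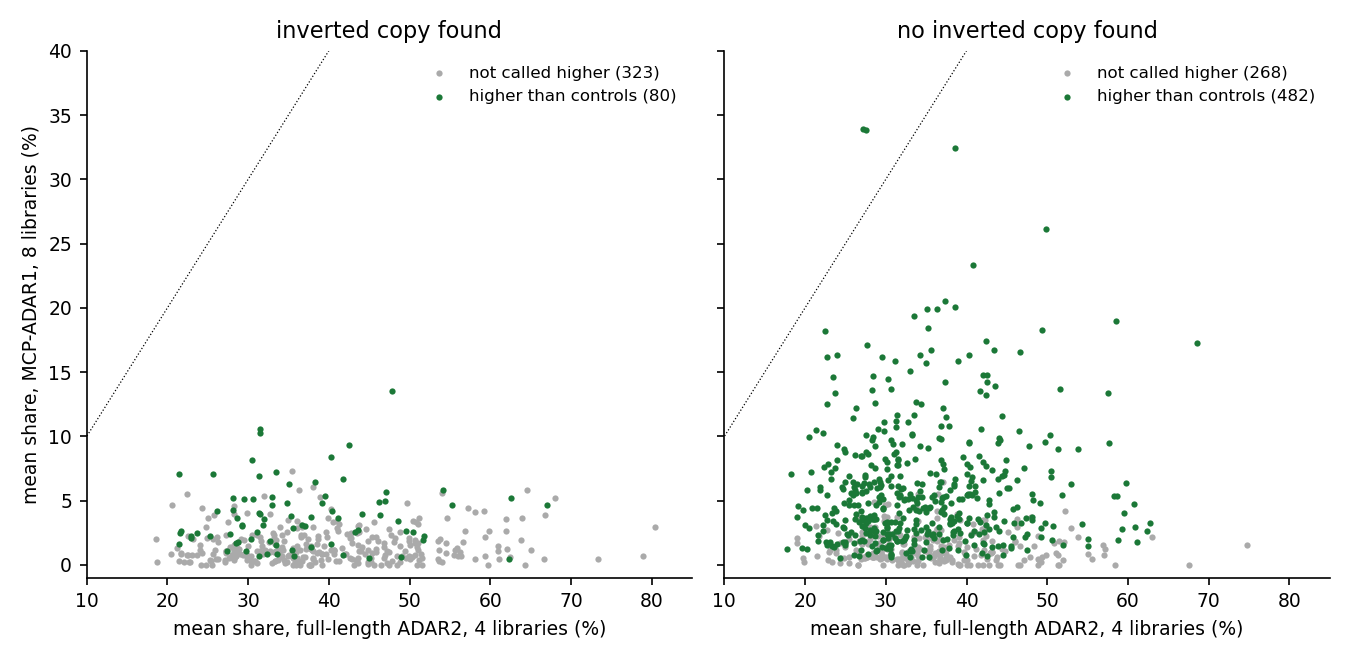
Mean share under MCP-ADAR1 (8 libraries, %, vertical axis) against mean share under full-length ADAR2 (4 libraries, %, horizontal axis), 1 point per missed site, with a copy (left, 403 sites) and without (right, 750 sites). Green points were called higher than the transfected controls (80 and 482 sites), grey points were not, and the dotted line marks equal shares, which RUNDC1 and OSTM1 exceed.

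The 10 largest called differences were at sites without a copy, or in 1 case outside annotated genes. RUNDC1 (3′ UTR, chr17:42991922) had 33.9% ± 13.8 (SD, n = 8) under MCP-ADAR1, from 10.3% to 52.4%, with every control at 0 (adjusted p = 1.18e-05, limma). Its full-length shares were 15%, 16.7%, 27.3% and 50%, and its mean there of 27.2% was lower than under MCP-ADAR1. OSTM1, the partner of a lysosomal chloride transporter (3′ UTR, chr6:108044215), had 33.8% ± 18.6 (SD, n = 8), from 4.55% to 61.1%, with every control at 0 (adjusted p = 2.39e-06, limma). These were the only 2 missed sites whose MCP-ADAR1 mean exceeded the full-length mean. ARMC5 (3′ UTR, chr16:31466114) had 32.4% ± 11.7 and ULK1, a kinase that starts autophagy (3′ UTR, chr12:131922336), had 26.1% ± 10.6. An adenosine outside annotated genes at chr9:137128924 had 25.9% ± 10.5, TICRR, a replication initiation factor (3′ UTR, chr15:89627591), had 23.3% ± 16.9, and TOB2, an antiproliferative protein, had 20.5% ± 12.7 at K73R. SLC25A32, a mitochondrial folate carrier, at Q4R (20.1%), CNOT6, a deadenylase (19.9%), and PPP3R1, the regulatory subunit of calcineurin (19.9%), completed the 10. No MCP-ADAR1 library of these 10 sites overlapped the controls, whose highest share was 1.47% in ULK1. The 10 were chosen as the largest called differences, so this separation follows largely from the choice. How many other missed or listed sites showed it was not counted.

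At the other end, 376 missed sites (30.6%) stayed under 5% in all 10 MCP-ADAR1 and Cas13b libraries. The share of listed or shared sites that did so was not counted. Listed sites had median means of 4.03% under MCP-ADAR1 and 2.38% under Cas13b, against 2.23% and 2.61% for missed sites. Of the 18 missed sites in genes of the recoding list, synonymous and 3′ UTR sites included, 7 were called higher under MCP-ADAR1 and none lower. Over all missed sites 48.4% were called higher, and over all listed sites 87.5%. CYFIP2 K320E, at 0 under MCP-ADAR1 and 0.595% in controls, was not called (adjusted p = 0.17, limma), and TMEM63B Q619R was at 0 in both. AZIN1 Q437R was called (adjusted p = 0.0331, limma) with a mean of 0.697% against 0. Under Cas13b the AZIN1 site had 13.3% without and 5.92% with the gRNA (adjusted p = 6.91e-05, limma). Of the 5 coding sites of SON, all synonymous, 4 were called, the largest of them E1063E with 6.18% against 0.446%. Of the 56 missed sites of the Alu list, 9 were called higher, and the highest mean of the list, 5.83% at EIF2AK2, was not (adjusted p = 0.072, limma). The 5 sites called lower, named here after their values were seen, were in WDR4, UGGT1, H2AFV, GNPNAT1 and RBM8A. WDR4, in an intron, had 1.86% under MCP-ADAR1 against 5.13% in controls (adjusted p = 0.00961, limma). The other 4 had adjusted p between 0.0295 and 0.0477 and lost their call when single libraries were left out.

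Cas13b-ADAR2 DD (E488Q) carries the E488Q deaminase domain of ADAR2 on another RNA-binding protein. Its 2 libraries were higher than the controls at 464 missed sites (37.8%), against 59.4% of listed sites, and lower at 2, against 0.0157% of listed sites. Among shared sites 715 of 749 (95.5%) were higher. The median difference of the called missed sites was 5.59 points and 84 reached 10. This comparison and that of MCP-ADAR1 share their control libraries. The median over missed sites was 3.33% without the gRNA and 1.49% with it, and these are single libraries.

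BAHD1, a heterochromatin protein, had the largest Cas13b difference: 38.1% and 21.9% in its 3′ UTR (chr15:40467919), with every control at 0 (adjusted p = 3.22e-06, limma). TICRR had 38.7% and 15.4% (adjusted p = 0.000131, limma). SPATA2, an adaptor of linear ubiquitin signalling, had 18.2% and 28.6% at K26R (chr20:49908414) and a mean of 22.9% at the synonymous A45A (chr20:49908356). LYRM7, an assembly factor of respiratory complex III, had 7.69% without and 45.5% with the gRNA (chr5:131202659), against 0 to 4.17% in controls. Its call (adjusted p = 0.00385, limma) ended without the library with the gRNA (adjusted p = 0.0526, limma). At the SERBP1 site printed above the 2 libraries gave 15.5% and 19.2%, higher than its controls of 0 to 5% (adjusted p = 0.00458, limma). The recoding list had 4 of 18 and the Alu list 13 of 56 missed sites called higher, against 37.8% of all missed and 59.4% of all listed sites. The share among all listed sites of these genes was not counted.

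Within the 8 MCP-ADAR1 libraries the E1008Q fusions were compared with the wild-type fusions, with localisation and guide as terms. E1008Q was higher at 154 missed sites (12.5%), against 38.2% of all listed sites, and lower at 35 (2.85%), against 1.32%. Over all missed sites the median share was 2.44% under E1008Q and 1.76% under wild type. ZNF384 had 29.8% under E1008Q and 2.78% under wild type in its 5′ UTR (chr12:6688675, adjusted p = 0.0039, limma). TBL1XR1, a corepressor subunit, had 30.1% and 4.56%, and PURB 29.2% and 7.52%. In OSTM1 the order was the other way, with 20.8% under E1008Q and 46.8% under wild type (adjusted p = 0.00485, limma). CDC27, a subunit of the anaphase-promoting complex, had 9.52% and 27.1% (adjusted p = 0.00676, limma). The count of 189 called sites fell to between 114 and 123 without the wild-type libraries NES with guide, NLS without guide or NLS with guide, or without the E1008Q libraries NES without guide or NLS with guide.

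NLS and NES fusions of MCP-ADAR1 differed at few missed sites. NLS was higher at 16 (1.3%), against 0.139% of listed sites, and lower at 112 (9.11%), against 24.1%. The largest of these differences was in TICRR, with 11.8% under NLS and 34.8% under NES (adjusted p = 0.0287, limma). OSTM1 had 24.2% and 43.4%, and CNOT6 11.3% and 28.5%. RHOT2, a mitochondrial GTPase, was higher with the NLS, at 22.5% against 6.99% (adjusted p = 0.0239, limma). These calls rest on all 8 libraries: without the E1008Q library NES with guide 62 sites were called, without the E1008Q library NLS with guide 56, and without any 1 of the other 6 libraries 0. With libraries that differ in localisation alone paired, 5 were higher and 50 lower with the NLS.

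The MS2 adRNA changed no missed site by this test. The count was 0 higher and 0 lower, against 0 of all listed sites, while 74 missed sites had an unadjusted p under 0.05 in limma. The median was 2.18% with and 2.28% without the guide. Among the full-length libraries, which chose the sites, the share with the GluR2 adRNA exceeded that without it at 72.2% of missed sites for wild type (median difference 5.83 points) and at 90.9% for E488Q (19.2 points). Shared sites gave 85.4% and 94%. E488Q exceeded wild type at 67.3% of missed sites without the guide and at 85.4% with it. These are single libraries, so a difference between transfections and an effect of guide or variant cannot be told apart.

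In the authors' deposited table of adjusted p-values, 201 missed sites (16.4%) had an adjusted p under 0.01 and a share above untransfected cells in at least 1 MCP-ADAR1 library, against 77.7% of all listed sites. In wild-type NES libraries the authors' deposited table called 70 missed sites without and 54 with the guide, against 30.3% and 26.4% of listed sites, and in wild-type NLS libraries 12 and 15, against 5.35% and 7.45%. In E1008Q NES libraries the authors' deposited table called 114 and 106, against 59.2% and 51.1% of listed sites, and in E1008Q NLS libraries 70 and 88, against 23.5% and 28.9%. In each of the 8 libraries the share of missed sites called was below that of listed sites, from 0.976% to 9.28%. The list itself holds sites called in this same table, many of them in MCP-ADAR1 libraries, while missed sites were chosen through full-length ADAR2. The listed shares are therefore no neutral background, and the comparison is a description. For Cas13b the authors' deposited table called 79 missed sites (6.43%) without and 23 (1.87%) with the gRNA, against 29.5% and 12.9% of listed sites. In the GFP, MS2 adRNA, GluR2 adRNA and Cas13b gRNA controls the authors' deposited table called 0 missed sites, against 0.00157%, 0.00366%, 0.0047% and 0.00601% of listed sites.

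The listed sites outside the set whose shares over 29 libraries were most like the mean profile of the missed sites, among 69869 sites with a mean share of 5% or more, lay just beyond its thresholds. They were in RPL7L1 (Pearson r = 0.993), NOP14 (0.991), CWF19L1 (0.988), FGD5-AS1 (0.986) and SSNA1 (0.985), with MCP-ADAR2 means from 3.24% to 3.92%. The 29 libraries include the full-length, MCP-ADAR2 and untransfected ones whose shares chose the missed sites. High r just beyond the thresholds therefore follows in part from the rule. The libraries also share constructs, and r is given as a description.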

How the data were processed

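The authors deposited the fraction (share) of edited reads per site and sample and a table of adjusted p-values, as the file headers and values show, without read counts. No header or label names the test behind these p-values or its reference. Reads were handled with STAR 2.6.0c, bcl2fastq 2.18.0.12 and SAMtools on GRCh38.p12, per the submitters' processing notes. Libraries came from 300 ng of poly(A) RNA and paired 100 bp reads, per the labels' protocols, and the kit is not stated to keep strand. In the table of shares 1 column without a sample name was not used, so 3 of the 4 untransfected runs entered. Depth per sample is unknown, so no counting intervals are given.

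Sites were annotated with GENCODE 29 transcripts (bedtools 2.31.1, Python 3.11.15, Biopython 1.88). Folds used ViennaRNA 2.7.2. Shares were tested with limma 3.58.1 (R 4.3.3) on the arcsine square root scale with an intensity trend, adjusted over 382978 sites. The fits had 8 residual degrees of freedom (14 libraries) and 4 (8 libraries), and were tested on simulated data. With 1 library per condition, the p-values measure spread between constructs and libraries, not between cultures. The missed sites, the gene lists and the tests were chosen with earlier results of these data known. Sites named are the 10 with the highest full-length means, all in the lists, the 10 highest amino-acid changes, the 10 and 5 largest called differences for MCP-ADAR1 and Cas13b, the genes with the most sites, up to 5 called per factor, those nearest the thresholds, and the 5 most similar profiles; for lists and factors the text gives examples. The rarer directions of variant and localisation were named after their values were seen. XIST is given by its count only, and some sites that this rule names are not reported here.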

Additional observations from a re-analysis of the deposited data

How the results depend on the processing

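By replicate number, no paired analysis was possible because each condition is 1 library and the labels number the untransfected runs alone. Pairing MCP-ADAR1 libraries that differ in 1 factor alone, an alternative added after seeing the data with 3 residual degrees of freedom, gave 174 called sites for E1008Q, 55 for NLS against NES and 0 for the guide. The number of missed sites was 2702 with a full-length minimum of 10%, 672 with 20%, and 391 with an MCP-ADAR2 share of 3% or less in every library. Leaving out 1 full-length library gave 1253 to 2826, the highest without wild type without guide. Leaving out 1 library gave 520 to 610 called sites for MCP-ADAR1 (600 in all), 315 to 561 for Cas13b (466), 114 to 139 for E1008Q (189), 0 to 62 for NLS against NES (128) and 0 for the guide. With shares not transformed, NLS against NES gave 40. No other planned setting moved these counts by more than 1.5 times, and no named site reversed. Among further alternatives added after seeing the data, minimum scores of 20, 30 and 40 found a copy for 41.2%, 31.4% and 23.6% of missed sites, and a score of 40 put uridine opposite 83.1%. Shares at thinly covered sites move in steps, and without depths the sites this affects are unknown.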
